A study of Mus musculus with 3 samples.

Results

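The genes described here are 10 members of the Wnt pathway, measured in cells of the endosteum, the inner surface of bone. They are the ligand genes Wnt4, Wnt5a, Wnt5b, Wnt10b and Wnt11, the co-receptor genes Lrp5 and Lrp6, and Axin2, Nkd2 and Lef1. The last of these act inside the cell and are grouped here as target genes, and Axin2 and Lef1 are widely used as readouts of the pathway. The members were taken as a named set, chosen with earlier results of these data known. Every probe set of the array that carried a single gene symbol matching a member was taken. This gave 21 probe sets of 34945 with a single symbol, for 10 of 18193 genes. Cells were freed by collagenase from thigh and shin bone of C57BL/6 mice, and cells without CD45 (blood cells), CD31 (vessel lining) and Ter119 (red cells) were sorted by 2 surface proteins, the adhesion molecule ALCAM and the progenitor marker Sca-1. The populations were ALCAM+ Sca-1- (ALCAM+ below), ALCAM- Sca-1+ (Sca-1+ below) and ALCAM- Sca-1- (double-negative below). Each was hybridised to 1 array, so no difference has a replicate check, an error or a test. The age, sex and number of mice, and whether animals were pooled, are not given in the sources used here.

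Wnt proteins are secreted lipid-modified ligands that bind Frizzled receptors. With the co-receptors LRP5 or LRP6 they stop the breakdown of beta-catenin, which then works with TCF/LEF factors at target genes such as Axin2. Other Wnt proteins, among them WNT5A, WNT5B and WNT11, are known mainly for signals that do not need beta-catenin. In bone the pathway favours osteoblast formation, LRP5 is known for its effect on bone mass, and in cartilage Wnt ligands help to pace the maturation of chondrocytes.

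The arrays gave linear MAS5 signals with the same trimmed mean. Signals at or below 75.4, the pooled median of all probe sets that are not controls, were treated as being at a floor, and a fold against a value at the floor is a lower bound, written "at least". Each gene stands by the brightest of its probe sets, on the mean of the 3 arrays. Differences of at least 4-fold, which is 2 on the log2 scale, are counted below as higher or lower, and these words rest on that size and not on a test. The only spread that can be seen within these arrays is that between probe sets of 1 gene. Over 4152 genes with 2 probe sets above the floor on the 3 arrays, the SD of the disagreement in log2 difference was 0.54 for ALCAM+ against double-negative cells, 0.67 for Sca-1+ against double-negative cells and 0.75 for ALCAM+ against Sca-1+ cells. Probe sets of a gene share their RNA and array, so the variation from sort to sort and mouse to mouse is not in it.

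Of the sorting markers, Alcam, Pecam1 and Ptprc were read, while the genes for Sca-1 and Ter119 were not analysed here, so the Sca-1 label is unchecked. Alcam had 5 probe sets, and 4 of them gave 206.1 to 267.7 in ALCAM+ cells and at most 41.1 in the other populations. Pecam1, which encodes CD31, lay at 5.20 to 9.10, below the floor on the 3 arrays. The brighter probe set of Ptprc (CD45) was read at 11.6 in ALCAM+ cells, 163.2 in Sca-1+ cells and 159.4 in double-negative cells. Its other probe set gave 47.3, 37.6 and 44.3, below the floor on each array and without this pattern. All 6 analysed osteoblast markers were above the floor in each population, at levels that differed widely, as given with the marker lists further on. Control RNAs added before labelling had a geometric mean of 439.5, 246.0 and 304.3 on the ALCAM+, Sca-1+ and double-negative arrays, although the arrays share a trimmed mean. In such bulk samples fewer cells of a type and less RNA per cell cannot be told apart.

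Across the 3 populations the Wnt ligand genes divided. Wnt4 and Wnt5b were bright in ALCAM+ and double-negative cells and near or just above the floor in Sca-1+ cells, where the first was at least 46.4-fold and the second 11.8-fold or more below the other populations. Wnt5a, and the co-receptor gene Lrp6, were highest in Sca-1+ cells but by less than 4-fold. Of the intracellular members, Lef1 was highest and Nkd2 lowest in double-negative cells. Lrp5 was below the floor everywhere.

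The promoter sequences of the members that differed by 4-fold with a start at the outer edge of the gene are printed because these are the genes the comparisons turn on. RefSeq windows on build GRCm38.p6, from 250 bases before to 50 bases after a start, were at hand for 7 of the 10 members, 13 windows in all. Shown are the 250 bases before the start, read 5′ to 3′ along the gene, with capitals for the GC box letters GGGCGG on either strand, which can overlap; the Nkd2 sequence has none. They lie at chr4:137277385-137277634 on the plus strand for Wnt4, chr13:73847632-73847881 on the minus strand for Nkd2 and chr3:131110047-131110296 on the plus strand for Lef1.
Wnt4: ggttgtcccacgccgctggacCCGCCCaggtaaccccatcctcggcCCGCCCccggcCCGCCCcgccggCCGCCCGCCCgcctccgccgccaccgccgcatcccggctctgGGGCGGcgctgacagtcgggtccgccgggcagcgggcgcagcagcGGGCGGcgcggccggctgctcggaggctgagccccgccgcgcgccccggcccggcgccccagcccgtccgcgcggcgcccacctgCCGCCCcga
Nkd2: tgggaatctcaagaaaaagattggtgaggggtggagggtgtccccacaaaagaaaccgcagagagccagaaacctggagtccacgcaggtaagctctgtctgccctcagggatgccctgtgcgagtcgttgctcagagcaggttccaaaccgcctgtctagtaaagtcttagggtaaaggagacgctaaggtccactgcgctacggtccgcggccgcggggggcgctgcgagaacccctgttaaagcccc
Lef1: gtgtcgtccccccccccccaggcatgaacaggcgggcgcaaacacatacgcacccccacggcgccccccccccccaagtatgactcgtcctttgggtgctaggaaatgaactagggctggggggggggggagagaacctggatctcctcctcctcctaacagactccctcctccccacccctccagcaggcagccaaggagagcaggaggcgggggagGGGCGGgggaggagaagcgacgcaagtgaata

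The Wnt4 window of 300 bases held 84.3% G and C, and 99.8% of all 32851 RefSeq windows held as much or less. It contained 8 GC boxes, a motif found in 35.7% of all windows. The windows printed for Nkd2 and Lef1 held 63.0% and 67.3% G and C, and the median of all windows was 52.7%. The letters ATCAAAG or TTCAAAG, forms of the TCF/LEF motif, were searched on both strands and were found in 8.65% of all windows. They were absent from the single windows of Wnt4, Nkd2, Axin2 and Wnt10b and from the 4 windows of Lef1. They occurred once in a window of Wnt11 and once in the most downstream of the 3 windows of Wnt5b, shown here with 10 bases on either side and the motif in capitals, at chr7:98835051-98835077 on the plus strand and chr6:119449441-119449467 on the minus strand.
Wnt11: acgtgggcggATCAAAGcgacggtccg
Wnt5b: gtaagtctctCTTTGATctgctccctg

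**Figure D1:**
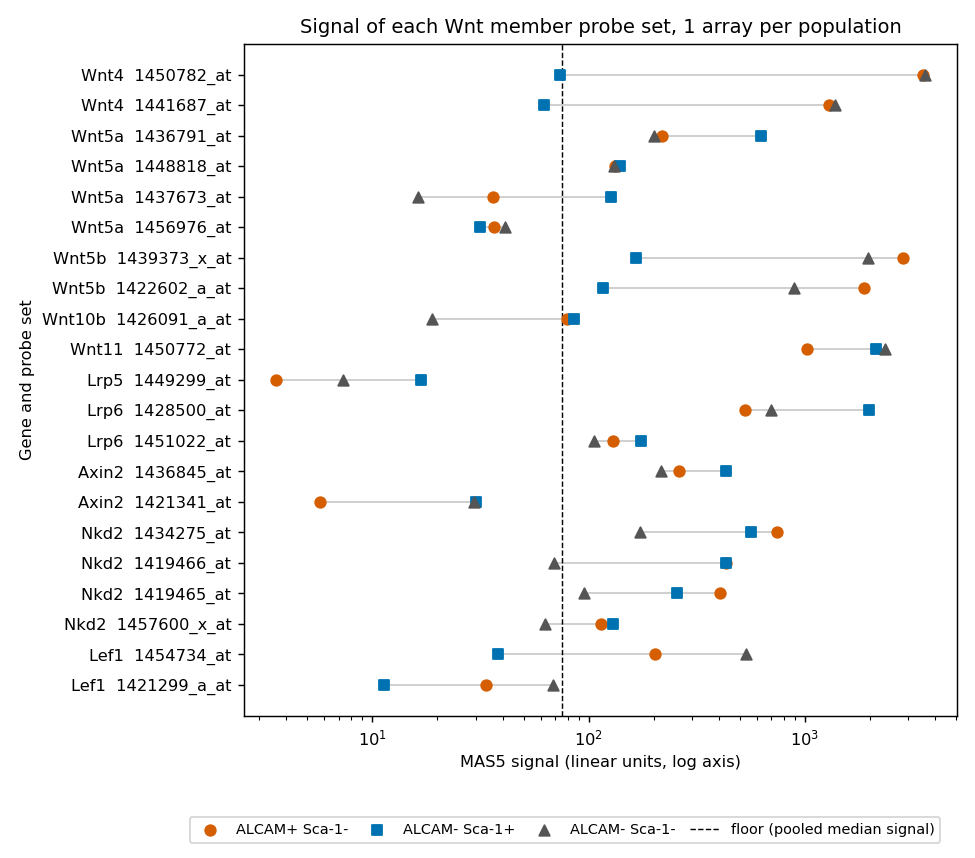
MAS5 signal on a log axis for each of the 21 probe sets of the 10 members (rows), with 1 point per population and 1 array per point; the dashed line is the floor of 75.4. Both probe sets of Wnt4 sit at 1289 or above in ALCAM+ and double-negative cells and below the floor in Sca-1+ cells, and the probe set of Lrp5 lies below the floor on the 3 arrays.

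Among the ligands, Wnt4, which encodes a ligand with roles in kidney, gonad and skeletal development, gave a signal of 3498 in ALCAM+ cells, 73.7 in Sca-1+ cells and 3587 in double-negative cells. Its second probe set gave 1289, 62.0 and 1371. The signals were alike in both Sca-1- populations, 1.03-fold apart, and at the floor in Sca-1+ cells. Wnt4 was therefore at least 46.4-fold lower in Sca-1+ than in ALCAM+ cells and at least 47.6-fold lower than in double-negative cells, and by the second probe set at least 17.1-fold and 18.2-fold. Only 0.340% of measured genes had a difference of that size or more between Sca-1+ and double-negative cells, a rank that counts bounds at their lowest value.

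Wnt5b, a ligand gene known from growth plate chondrocytes, gave 2841 in ALCAM+ cells, 165.5 in Sca-1+ cells and 1950 in double-negative cells. Its other probe set gave 1874, 116.2 and 886.8. Both were above the floor on the 3 arrays, so these folds are measured and not bounds. The order was the same in both, with ALCAM+ cells highest and Sca-1+ cells lowest. Wnt5b was 17.2-fold higher in ALCAM+ than in Sca-1+ cells (16.1-fold by the other probe set) and 11.8-fold higher in double-negative than in Sca-1+ cells (7.63-fold). Between ALCAM+ and double-negative cells it differed by 1.46-fold in the first and 2.11-fold in the second probe set. The brighter probe set is of a type (suffix x) whose probes can also bind other transcripts, which the other is not.

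Wnt5a, the paralog of Wnt5b and a ligand gene widely expressed in mesenchyme, had the reverse pattern in its brightest probe set, with 219.1 in ALCAM+ cells, 625.1 in Sca-1+ cells and 199.7 in double-negative cells. That is 3.13-fold higher in Sca-1+ than in double-negative cells and 2.85-fold higher than in ALCAM+ cells. The other 3 probe sets did not all bear this out. A second gave 132.9, 140.1 and 130.7, nearly level over the populations. Another gave 36.1, 126.7 and 16.2, above the floor in Sca-1+ cells alone, and the last stayed below the floor at 31.4 to 41.0. For Sca-1+ against double-negative cells the Wnt5a difference was thus 3.13-fold and 1.07-fold in the probe sets that measured it on both sides, and at least 1.68-fold in the one above the floor in Sca-1+ cells alone.

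Wnt11, a ligand gene known for cell movement in the embryo, gave 1027 in ALCAM+ cells, 2118 in Sca-1+ cells and 2337 in double-negative cells on its single probe set. It was lowest in ALCAM+ cells, by 2.06-fold against Sca-1+ and 2.28-fold against double-negative cells, and close to level between the latter (1.10-fold). Wnt10b, a ligand gene that favours bone over fat formation, gave 79.1, 85.3 and 18.9. The first values lie just above the floor and the last below it, so the fold of at least 1.13 between Sca-1+ and double-negative cells says little about its true size.

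Among the co-receptors, Lrp6 gave 530.6 in ALCAM+ cells, 1983 in Sca-1+ cells and 693.4 in double-negative cells. Sca-1+ cells were highest, by 3.74-fold and 2.86-fold. A dimmer probe set gave 129.0, 173.9 and 106.0, also highest in Sca-1+ cells but by only 1.35-fold and 1.64-fold. Lrp5 gave 3.6, 16.8 and 7.30 on its single probe set, all below the floor, so no order was drawn from it.

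Among the intracellular members, Axin2, a scaffold of the complex that breaks down beta-catenin and a feedback target of the pathway, gave 262.6 in ALCAM+ cells, 430.1 in Sca-1+ cells and 214.9 in double-negative cells. It was highest in Sca-1+ cells by 1.64-fold against ALCAM+ cells and by 1.00 on the log2 scale against double-negative cells, while a dimmer probe set never exceeded the floor, at 5.70 to 30.2. The differences of Axin2 between ALCAM+ and double-negative cells (1.22-fold) and between ALCAM+ and Sca-1+ cells (1.64-fold) were both smaller than the SD between probe sets given above.

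Nkd2, which encodes a Dishevelled-binding inhibitor of Wnt signalling, gave 741.6 in ALCAM+ cells, 565.7 in Sca-1+ cells and 172.3 in double-negative cells. Of its other 3 probe sets, the first gave 432.6, 431.4 and 69.1, the second 405.8, 255.1 and 95.2, and the third 114.6, 129.8 and 63.0. Double-negative cells were lowest in each of the 4 probe sets, while the order of the other populations was not the same in all. Nkd2 was 4.30-fold higher in ALCAM+ than in double-negative cells, and its other probe sets gave at least 5.74-fold, 4.26-fold and at least 1.52-fold. Against Sca-1+ cells double-negative cells were 3.28-fold lower by the brightest probe set, and at least 5.72-fold, 2.68-fold and at least 1.72-fold by the others, so this comparison passed 4-fold in 1 of 4 probe sets. Scaling by the added poly-A control RNAs changed these places, with log2 differences of 1.58 for ALCAM+ and 2.02 for Sca-1+ against double-negative cells, in place of 2.11 and 1.72.

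Lef1, a nuclear partner of beta-catenin that is itself a target gene, gave 201.5 in ALCAM+ cells, 38.0 in Sca-1+ cells and 535.2 in double-negative cells. Its signals fell from double-negative to ALCAM+ to Sca-1+ cells, and only the last was at the floor. Double-negative cells were 2.66-fold above ALCAM+ and at least 7.10-fold above Sca-1+ cells. The other probe set gave 33.5, 11.3 and 68.7, in the same order but below the floor on each array. Averaging both probe sets left a log2 difference of -1.41 between Sca-1+ and double-negative cells, in place of -2.83.

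**Figure D2:**
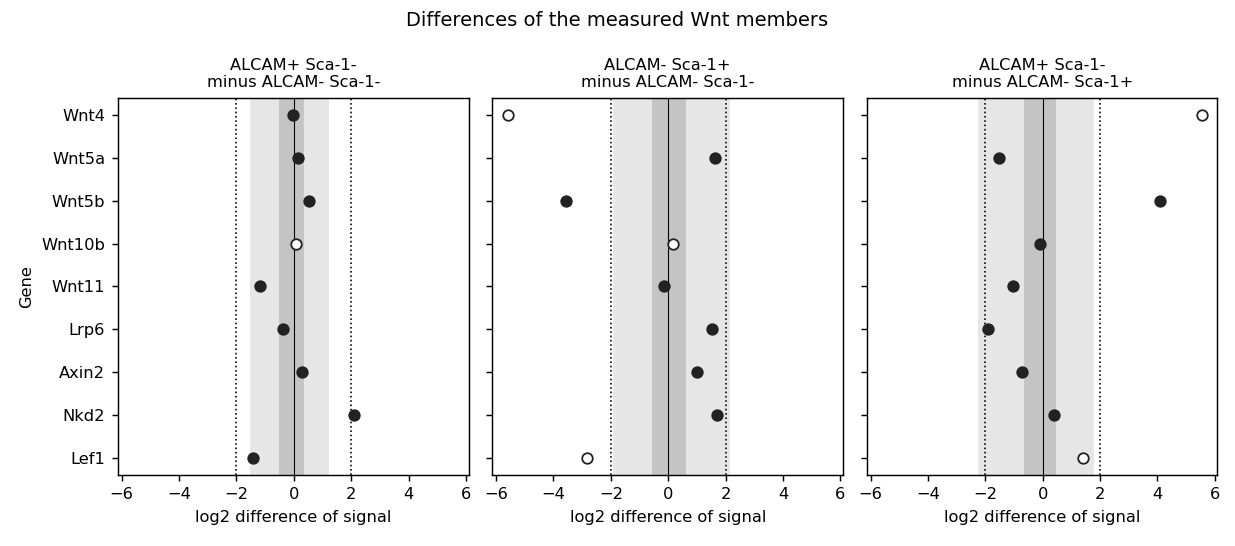
Log2 difference of signal for the 9 members above the floor on at least 1 array (rows) in the 3 comparisons (panels); open circles are lower bounds because the dimmer value was at the floor, dotted lines mark 4-fold, and dark and light bands hold the middle of all measured genes, from the 25th to the 75th and from the 5th to the 95th percentile. Wnt4 and Wnt5b lie at -5.57 and -3.56 in the middle panel and at 5.54 and 4.10 in the right panel, outside the bands, and Nkd2 at 2.11 and Lef1 at -1.41 in the left panel, the first outside the bands and the second within the light one.

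Counted over the members, ALCAM+ against double-negative cells gave 1 of 9 measured members at least 4-fold higher (Nkd2), where 2.01% of the 12643 measured genes were, and 0 lower, where 2.67% were. The median log2 difference was 0.07 for the members and -0.03 for all measured genes. Sca-1+ against double-negative cells gave 0 members higher, against 5.46% of measured genes, and 3 lower (Wnt4, Wnt5b and Lef1), against 4.71%, with a median of 0.18 beside 0.00. ALCAM+ against Sca-1+ cells gave 2 members higher (Wnt4 and Wnt5b), against 3.99%, and 0 lower, against 5.86%, with a median of -0.11 beside -0.01. This last comparison uses the same arrays as the others and adds no measurement. In each comparison the median of the members was the value of Wnt10b, whose signals lay near or below the floor. These medians therefore say little about the members as a group. Since the members were chosen with earlier results of these data known, the counts describe them and are no test of the set. Lrp5, the tenth member, was left out as below the floor.

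At a size of 2-fold, added after the values were seen, Sca-1+ cells had 4 members higher than double-negative cells (Nkd2, Wnt5a, Lrp6 and Axin2), where 15.0% of measured genes were, and 3 lower, where 12.7% were. Axin2 reached this size narrowly, at a log2 difference of 1.00. ALCAM+ cells had 3 members lower than Sca-1+ cells (Lrp6, Wnt5a and Wnt11), beside 15.8% of measured genes, and 3 higher, beside 11.2%. Against double-negative cells they had 2 lower (Lef1 and Wnt11), beside 10.6%, and 1 higher, beside 6.68%. By the highest signal, Sca-1+ cells led in 4 members (Wnt5a, Wnt10b, Lrp6 and Axin2), double-negative cells in 3 (Wnt4, Wnt11 and Lef1) and ALCAM+ cells in 2 (Wnt5b and Nkd2), but under scaling by the added control RNAs Nkd2 and Wnt11 were highest in Sca-1+ cells. Neighbours in these orders cannot be called different or equal, since no population has a spread.

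Markers of some cell types moved with these genes, while the leukocyte, endothelial and smooth muscle and pericyte lists were mixed or mostly under 4-fold. Of 5 smooth muscle and pericyte markers, 2 were highest in Sca-1+ and 3 in double-negative cells. Among 4 measured leukocyte and 3 measured endothelial markers, only Lyz2 and Tek passed 4-fold, both highest in Sca-1+ cells. The chondrocyte markers moved with Wnt4 and Wnt5b: 8 of 8 were at least 4-fold lower in Sca-1+ than in both other populations, with summed signals of 170004 in ALCAM+ cells, 4402 in Sca-1+ cells and 152774 in double-negative cells, and Col10a1, the collagen of hypertrophic cartilage, was below the floor in Sca-1+ cells. Osteoblast markers moved with them too: 5 of 6 passed 4-fold upward in ALCAM+ against Sca-1+ cells and 3 of 6 (Ibsp, Alpl and Sp7) were lower in Sca-1+ than in double-negative cells, with summed signals of 164296, 32104 and 71715. Ibsp, a bone matrix protein gene, gave 37633, 161.4 and 18264. Of 5 osteocyte markers 3 were measured, and 2 of these, Dmp1 and Phex, passed 4-fold upward in ALCAM+ cells against each other population. The third, Pdpn, was highest in Sca-1+ cells (2004, 3551 and 858), 4.14-fold above double-negative cells. Summed signals over the 5 were 25242, 4954 and 2164, and Pdpn made up most of the Sca-1+ sum. Mepe and Sost lay below the floor on the 3 arrays. The 8 fibroblast and progenitor markers were highest in Sca-1+ cells, as Wnt5a and Lrp6 were, with summed signals of 6045, 108104 and 3306. In Sca-1+ cells 8 of 8 were past 4-fold upward against double-negative cells and 7 of 8 against ALCAM+ cells. The exception, Pdgfra (5122, 11647 and 671.5), was also 7.63-fold higher in ALCAM+ than in double-negative cells and made up most of the ALCAM+ sum. Of the neutrophil markers 6 of 8 were also highest in Sca-1+ cells, summed over the 8 at 390.6, 16253 and 3015, with Elane below the floor in Sca-1+ cells and 2 of 8 at least 4-fold lower there than in double-negative cells. Lef1 was highest and Nkd2 lowest in double-negative cells, although Lef1 was only 2.66-fold above ALCAM+ cells. The measured erythroid markers were also highest in double-negative cells. Of 6 analysed, 5 were measured and 5 were at least 4-fold higher in double-negative than in both other populations, with summed signals of 401.6, 278.3 and 15782, and Klf1, Slc4a1 and Ermap below the floor in ALCAM+ and Sca-1+ cells and Hba-a1 on all 3 arrays. The cell cycle markers did the same in 6 of 6 cases, with summed signals of 1113, 1036 and 21434. The part of these cells in the Wnt values was not tested.

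For each member past 4-fold, the 3 measured genes with the most similar profile were found by the Euclidean distance between log2 signals centred on their mean over the 3 arrays. Signals below the floor were raised to it first, in Wnt4 and Lef1 (Sca-1+ cells) and in Slc38a3, Zdhhc12, Stau2 and Evi2a, so distances that involve these genes are not fully measured. With 3 points many genes lie close, so this is a description only. The nearest to Wnt4 were Slc8a3 (7289, 156.1 and 6658 in ALCAM+, Sca-1+ and double-negative cells; distance 0.13), Slc38a3 (0.16) and Susd5 (0.29). The nearest to Wnt5b were St3gal6 (3205, 185.3 and 2274; distance 0.04), Cytl1 (0.08) and Ica1 (0.09). Nkd2 was nearest to Stau2 (321.7, 244.5 and 56.5; distance 0.01), Pdgfc (0.08) and Evi2a (0.09), and Lef1 to Pfkl (2555, 849.3 and 6244; distance 0.12), Sox6 (0.12) and Zdhhc12 (0.14).

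**Figure D3:**
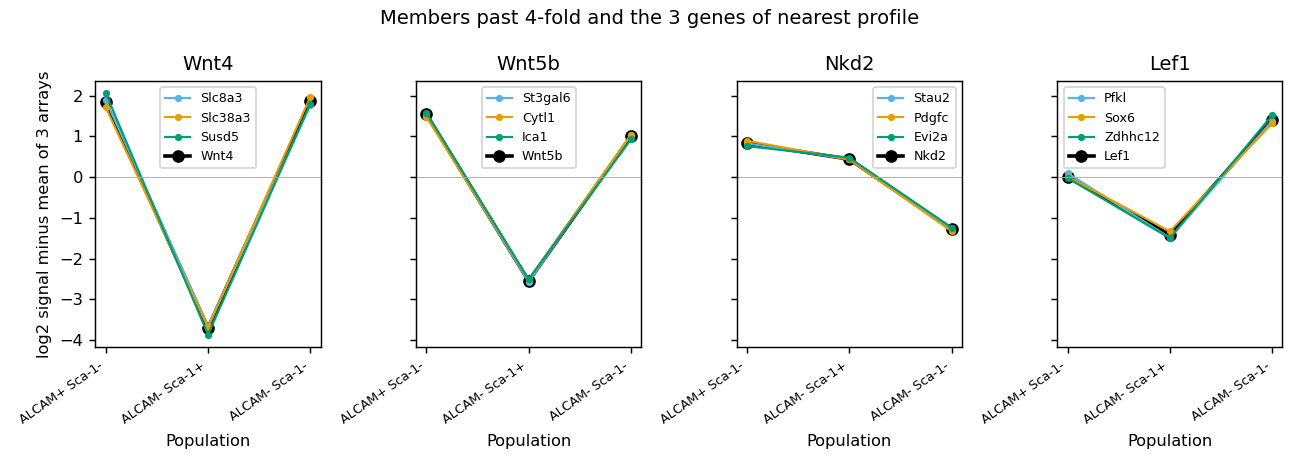
Log2 signal, raised to the floor and centred on its mean over the 3 arrays, for the 4 members past 4-fold (black) and the 3 genes of nearest profile (colours), by population; each point is 1 array. Wnt4 and Wnt5b dip in Sca-1+ cells, Nkd2 is lowest in double-negative cells and Lef1 is highest there.

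The rest of the pathway was read from lists of its other parts. Their counts stand beside the shares of all measured genes given above: 2.01% higher and 2.67% lower in ALCAM+ and 5.46% and 4.71% in Sca-1+ against double-negative cells, and 3.99% and 5.86% in ALCAM+ against Sca-1+ cells. Of 16 other ligand and ligand-secretion genes, 9 were measured. Sca-1+ cells had 2 at least 4-fold higher than double-negative cells and 0 lower, and their median on the log2 scale was 0.37. Wnt2, a ligand gene of lung and vessel development, gave 7.6 in ALCAM+ cells, 671.0 in Sca-1+ cells and 14.7 in double-negative cells, a rise of at least 8.90-fold in Sca-1+ cells over either other population. Wnt9a, a ligand gene of joint formation, gave 167.5, 1907 and 240.2, so that Sca-1+ cells were 11.4-fold and 7.94-fold higher. In ALCAM+ against double-negative cells 0 of the 9 passed 4-fold in either direction, with a median of -0.34. Against Sca-1+ cells 0 were higher and 2 lower in ALCAM+ cells (the same genes), with a median of -0.29. The medians of -0.34 and -0.29 were the values of Wnt3a and Wnt1. Each of these was above the floor on a single array, so the medians say little about the list. The ligand genes past 4-fold upward in Sca-1+ cells were thus Wnt2 and Wnt9a, and those lower Wnt4 and Wnt5b. Wnt2 has a single probe set, and the other probe set of Wnt9a was not above the floor on any array. The genes of this list past 4-fold fell from 2 to 1 with averaged probe sets and with the 75th percentile floor. The calls of Wnt4 and Wnt5b held under both.

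Of 20 Frizzled and other receptor genes, 16 were measured. ALCAM+ cells had 2 higher than double-negative cells and 0 lower, with a median of 0.09. Lrp4, which encodes a receptor of the LRP family, gave 915.3 in ALCAM+ cells, 246.3 in Sca-1+ cells and 108.5 in double-negative cells, 8.44-fold higher in ALCAM+ than in double-negative cells. Fzd5 gave 2044, 1169 and 351.6, a 5.81-fold difference between the same populations. Sca-1+ cells had 1 higher than double-negative cells, Fzd4 (303.5, 2119 and 177.1; 12.0-fold), and 2 lower, Fzd9 (431.6, 121.9 and 995.3; 8.16-fold) and Lgr6, a receptor gene for R-spondins (235.5, 94.8 and 393.2; 4.15-fold), with a median of 0.79. Against Sca-1+ cells ALCAM+ cells had 3 lower and 0 higher, with a median of -0.41. These were Ror1, a receptor gene for WNT5A (61.5 against 572.3; at least 7.59-fold), Fzd4 (6.98-fold) and Fzd1 (434.5 against 1831; 4.21-fold). Averaging the probe sets of each gene ended the call for each of the 5 that have more than 1 (Fzd5, Fzd4, Lgr6, Ror1 and Fzd1), and could not change Lrp4 and Fzd9, which have 1.

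Of 27 cytoplasmic and nuclear signalling genes, 24 were measured. Past 4-fold, ALCAM+ cells had 1 higher and 0 lower than double-negative cells, and 1 higher and 1 lower than Sca-1+ cells. Sca-1+ cells had 1 higher and 0 lower than double-negative cells. The genes were Tcf7l2 and Prickle2. Tcf7l2, a TCF/LEF factor gene, gave 3004 in ALCAM+ cells, 670.5 in Sca-1+ cells and 660.9 in double-negative cells, 4.48-fold and 4.55-fold higher in ALCAM+ cells, and its other 3 probe sets above the floor pointed the same way in both comparisons. Prickle2, a gene of planar cell polarity, gave 158.6, 1509 and 258.6, 9.51-fold and 5.83-fold higher in Sca-1+ cells. The medians of the list were 0.11 for ALCAM+ and 0.02 for Sca-1+ against double-negative cells and 0.05 for ALCAM+ against Sca-1+ cells.

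Of 18 feedback and target genes other than the members, 14 were measured. ALCAM+ cells had 3 higher than double-negative cells and 4 higher than Sca-1+ cells, with 0 lower in both, and medians of -0.09 and 0.38. Sca-1+ cells had 0 higher and 2 lower than double-negative cells, with a median of -0.66. Ccn4, a secreted matrix-associated target gene, gave 10822 in ALCAM+ cells, 228.4 in Sca-1+ cells and 2197 in double-negative cells, so ALCAM+ cells were 47.4-fold and 4.93-fold higher. Tnfrsf19, a receptor gene of the TNF family, gave 2048, 65.7 and 159.0, at least 27.2-fold and 12.9-fold higher in ALCAM+ cells. Notum, which encodes an enzyme that inactivates Wnt proteins, was highest in double-negative cells, with 552.1, 60.6 and 1283, and at least 17.0-fold lower in Sca-1+ cells. Dkk1, an inhibitor of LRP5 and LRP6, gave 586.8, 44.4 and 98.5. These 4 were named for differing by 4-fold. Among the measured targets that did not, Cd44, Myc and Nkd1 were highest in Sca-1+ cells. Cd44 gave 6143, 12085 and 4341, Myc 4406, 5131 and 4914, and Nkd1 61.0, 172.9 and 166.7. For Myc and Nkd1, Sca-1+ cells were only 1.04-fold above double-negative cells. Ccnd1, Fosl1, Wif1, Tnfrsf11b and Znrf3 were highest in double-negative cells, Znrf3 by only 1.02-fold over ALCAM+ cells. Apcdd1 and Cited1 were highest in ALCAM+ cells, where Cited1, at 82.7, lay just above the floor. In the other populations Cited1 was below the floor. Of 14 measured secreted modulators of the pathway, a list that shares Dkk1, Notum and Wif1 with the targets, Sca-1+ cells had 6 past 4-fold upward and 5 downward against double-negative cells.

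**Figure D4:**
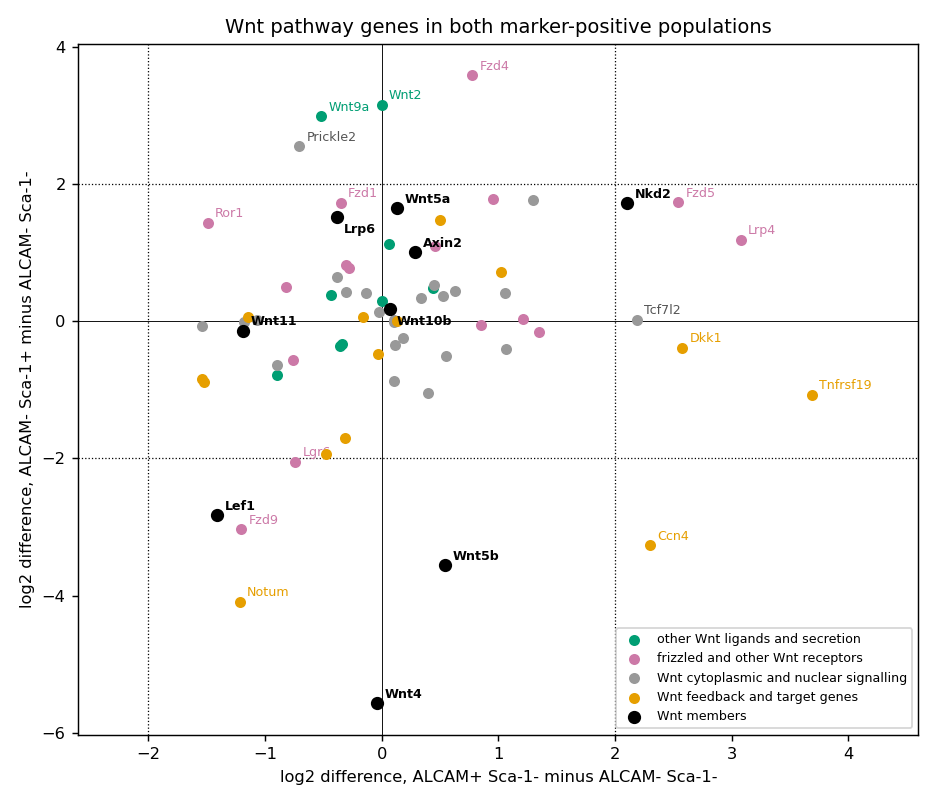
Log2 difference from double-negative cells for ALCAM+ (horizontal) and Sca-1+ cells (vertical), for the measured members (black) and the other measured pathway genes (colours by list), without the secreted modulators; dotted lines mark 4-fold, members and genes at least 4-fold apart in any comparison are named, and both axes share the double-negative array. Wnt4, Notum and Wnt5b lie lowest, at -5.57, -4.09 and -3.56, and Fzd4, Wnt2 and Wnt9a highest, at 3.58, 3.15 and 2.99.

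Under other processing the calls of Wnt4 and Wnt5b held and those of Nkd2 and Lef1 did not hold throughout. Over 9 alternatives the log2 difference between Sca-1+ and double-negative cells ran from -5.61 to -3.05 for Wnt4 and from -3.56 to -2.17 for Wnt5b. Nkd2 stayed past 4-fold between ALCAM+ and double-negative cells in 5 of 9, from 0.77 to 2.21, and Lef1 between Sca-1+ and double-negative cells in 7 of 9, from -3.82 to -0.30. Equal trimmed means and no filter could not move these values. The floors of 21.1 and 62.3 lay below the Nkd2 signals, so they could not move Nkd2 either. Of the settings that could, only quantile normalization kept Nkd2 past 4-fold. For Lef1 these lower floors could only enlarge the difference.

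**Figure D5:**
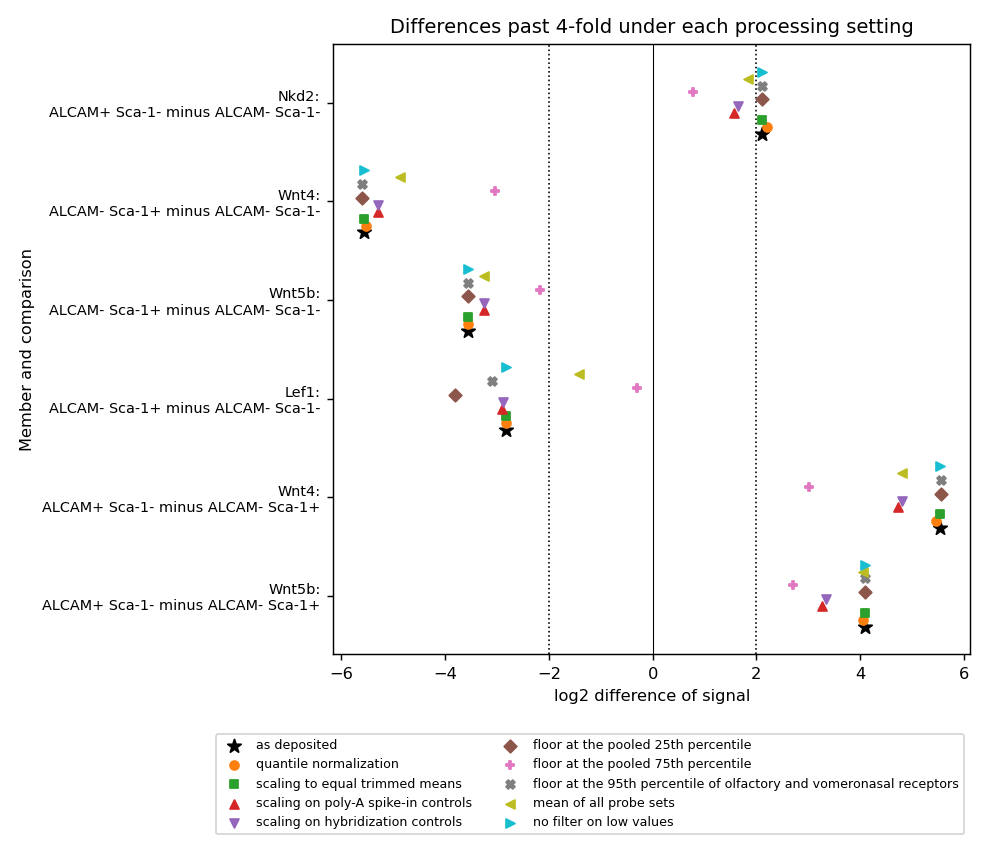
Log2 difference of the 6 member differences past 4-fold (rows) as deposited (star) and under the 9 processing alternatives (other symbols, offset for sight); dotted lines mark 4-fold. The 4 rows of Wnt4 and Wnt5b stay outside the lines, and those of Nkd2 and Lef1 cross inside when the floor is raised to the 75th percentile, at 0.77 and -0.30.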

How the data were processed

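Expression was measured on 3 one-colour arrays, 1 per sorted population, each assigned by its title. Total RNA was amplified and biotin-labelled by a 2-cycle assay, per the labels' protocols. The deposited intensity values are linear signals of 45101 probe sets; the submitters' processing notes name MAS5, with no version in the sources read. The 2% trimmed mean was 500.0 on each array, so signals were used unscaled. Amplification favours 3' ends, and equal scaling hides differences in total RNA.

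Probe sets were named by the platform annotation and RefSeq identifiers: 34945 had 1 symbol, 932 several, 9160 none listed, and 64 were controls. Signals were floored at 75.4 and turned to log2; a gene above the floor on at least 1 array was measured (12643 of 18193). With 1 array a group there is no p-value. Named are all members, up to 4 genes per other Wnt list and comparison past 4-fold, the other measured targets, the sorting genes, and the 3 nearest profiles. The members and lists were chosen with earlier results of these data known. The procedure was tested on simulated data, with large changes placed only in genes well above the floor. That test does not bear on calls near 4-fold or on values at the floor. Alternatives were 4 scalings, 3 floors, averaged probe sets and no filter; a 2-fold rule was added later. Work was done in Python 3.11.15 with pandas 2.3.3, numpy 2.4.6, scipy 1.17.1 and matplotlib 3.10.9.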

Additional observations from a re-analysis of the deposited data

How the results depend on the processing

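No paired analysis was possible because each population has 1 array, and for the same reason no replicate could be left out. Over the other settings 223 member differences stayed on the same side of 4-fold, 8 rose past it, 6 fell short of it and 0 called ones reversed. Part of the 223 could not move, as equal trimmed means and no filter leave the member signals as they were. Quantile normalization, equal trimmed means, a floor from olfactory receptors and no filter moved no count of members, and the other counts by less than 1.5 times (receptors past 4-fold from 7 to 5 under quantile normalization).

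Higher members in ALCAM+ against double-negative cells went from 1 to 0 with scaling on poly-A or hybridization controls, with the 75th percentile floor and with averaged probe sets. Higher members in Sca-1+ against double-negative cells went from 0 to 1 with both control scalings (Nkd2) and with the 25th percentile floor (Wnt10b), and lower members in ALCAM+ against Sca-1+ cells from 0 to 2 with both control scalings (Wnt5a and Lrp6). The 2-fold rule gave 2 lower members in ALCAM+ and 4 higher in Sca-1+ against double-negative cells, and 3 lower in ALCAM+ against Sca-1+ cells.

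Of all measured genes, ALCAM+ cells had 254 higher and 338 lower than double-negative cells and 504 higher and 741 lower than Sca-1+ cells. Poly-A scaling gave 162, 587, 279 and 1517, and hybridization scaling 165, 542, 297 and 1404. The share of higher calls thereby went from 42.9% to 21.6% and 23.3%, and from 40.5% to 15.5% and 17.5%; for Sca-1+ against double-negative cells it went from 53.7% to 65.1% and 64.9%. Poly-A scaling moved the median of all genes to -0.49 in ALCAM+ and 0.25 in Sca-1+ against double-negative cells and to -0.78 in ALCAM+ against Sca-1+ cells. It also turned the sign of the differences under 4-fold of Wnt5a and Axin2 (ALCAM+ against double-negative), Nkd2 (ALCAM+ against Sca-1+) and Wnt11 (Sca-1+ against double-negative), as did hybridization scaling. The 75th percentile floor gave 122, 86, 256 and 356, with 345 higher and 223 lower in Sca-1+ against double-negative cells in place of 690 and 595, and a share of higher calls of 58.7% for ALCAM+ against double-negative cells. The 25th percentile floor gave 584 lower in ALCAM+ than double-negative cells. Averaged probe sets gave 168 higher and 194 lower there, and 459 higher in Sca-1+ than double-negative cells.

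The lists were also counted for genes past 4-fold in any comparison, for which no share over all measured genes was computed. These went from 2 to 4 for cytoplasmic and nuclear genes with both control scalings and to 1 with the 75th percentile floor. Other ligands went from 2 to 5 with the 25th percentile floor, and to 1 with the 75th percentile floor and with averaged probe sets. Receptors went from 7 to 3 with the 75th percentile floor and 2 with averaged probe sets, and targets from 4 to 2 with that floor. A higher floor shrinks every fold against it by construction; the cause of the other changes was not tested. Signal over the floor limits what can be said of Wnt10b, Lrp5 and the dim probe sets.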

Other observations

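Related genes of the pathway differed in where their signal was highest, in values named here after they were seen. Nkd1, the paralog of Nkd2, gave 61.0 in ALCAM+ cells, 172.9 in Sca-1+ cells and 166.7 in double-negative cells, so its brightest probe set was at the floor in the population where Nkd2 was highest as deposited; 2 of its 3 other probe sets were also lower there than in double-negative cells. Among the TCF/LEF factor genes, Lef1 was highest in double-negative cells and Tcf7l2 in ALCAM+ cells, while Tcf7l1 was lowest in double-negative cells, with 1342 in ALCAM+ cells, 1846 in Sca-1+ cells and 545.4 in double-negative cells. Tle2, a co-repressor gene whose product binds these factors, was lowest in ALCAM+ cells on its single probe set, with 243.1, 674.2 and 708.7. Apcdd1, which encodes a Wnt inhibitor, gave 3862, 3115 and 1900.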
